A study of Mus musculus with 8 samples.

Results

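Cholesterol synthesis and its control were followed through 29 genes in mouse collecting duct cells after kidney ischemia and reperfusion injury (IRI). The genes were listed by symbol for their place in the pathway, with earlier results of these data known, and comprise 18 enzymes of synthesis, 5 sterol sensors and SREBP factors, 4 genes of oxysterol synthesis and LXR response, and 2 other lipid genes that respond to SREBP. All 29 were among the 24421 genes of the count tables, and all 29 passed the filter on low counts that left 14606 genes for testing.

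Cells make cholesterol from acetyl-CoA through mevalonate, isoprenoid diphosphates, squalene and lanosterol. When sterols are low in the endoplasmic reticulum, SCAP escorts the SREBP transcription factors to the Golgi, where they are cleaved and released to activate the genes of synthesis, and the INSIG proteins hold SCAP back when sterols are high. Oxysterols, which are oxidized forms of cholesterol, work in both arms, since they promote the hold by INSIG and activate the nuclear receptors LXR, which turn on genes of cholesterol export.

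The samples were RiboTRAP libraries, that is, RNA bound to ribosomes carrying an mCherry-tagged Rpl10a protein, pulled down from whole kidneys of HoxB7-Cre; Gt(ROSA)26Sor-mCherry-Rpl10a mice. All 8 mice carried both alleles and were males of 10 to 16 weeks. Kidneys of the 4 IRI mice had 30 min of clamping of both renal pedicles and were taken 9 h later, and the 4 sham mice had the same operation without clamping. The tag marks cells with a history of HoxB7-Cre, so ureter lining, which shares its embryonic origin with the collecting duct, can carry it too. Gene counts ran from 13518005 to 27496808 per library after IRI and from 25210299 to 29285812 in sham. Values below are CPM, a gene's reads scaled to a library of fixed size with TMM factors, listed for replicates 1 to 4, and their means are given ± SD over n = 4 mice per group. Log2 fold changes are IRI against sham, and a value after ± beside one is its standard error from limma-voom. A gene was called higher or lower when the edgeR quasi-likelihood test gave a Benjamini-Hochberg adjusted p under 0.01 over all 14606 genes.

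SREBP factors bind sterol regulatory elements near the start of their target genes, usually beside sites for other factors such as CCAAT boxes. Promoter sequence from RefSeq (GRCm38.p6, 250 bases before to 50 after the start) was on hand for 24 of the 29 genes, not including Fdps, Fdft1, Sqle, Abcg1 and Stard4. The element written as TCACNCCAC on either strand was present in 1 of the 24, Hmgcs1, and in 1.44% of 27025 genes, a gene being counted when any of its promoters held it (1.24% of 32851 promoters). The shorter form CACNCCAC, which lies within it, was present in 3 of the 24, namely Acat2, Hmgcs1 and Insig1, and in 7.12% of genes (6.24% of promoters). CCAAT on either strand was found in 19 of the 24, among them 14 of the 15 enzymes with a promoter sequence, and in 41.1% of genes (37.4% of promoters). The 200 bases before the start are shown for Hmgcs1, the only holder of the full element, and for Mvk, picked after its sequence was seen for its repeated CCAAT letters, on the plus strand at chr13:119690151-119690350 and chr5:114444069-114444268. Capitals mark the element and each CCAAT or its complement ATTGG.
Hmgcs1: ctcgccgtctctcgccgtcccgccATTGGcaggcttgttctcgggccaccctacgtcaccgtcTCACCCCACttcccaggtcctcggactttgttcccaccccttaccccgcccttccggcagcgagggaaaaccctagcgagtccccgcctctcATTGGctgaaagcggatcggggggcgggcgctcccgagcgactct
Mvk: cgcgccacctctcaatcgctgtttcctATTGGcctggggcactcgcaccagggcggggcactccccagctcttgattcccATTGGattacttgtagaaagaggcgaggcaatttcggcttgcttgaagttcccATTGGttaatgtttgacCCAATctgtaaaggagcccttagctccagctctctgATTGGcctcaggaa
In Hmgcs1 the element began at base -137 from the start. In Mvk the letters ATTGG occurred 4 times, each 53 bases from the next, with a CCAAT at base -50. Such matches describe the letters only.

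The libraries held more than collecting duct RNA, and 4 of them stood apart. Adrenal cortex genes (Star, Cyp11a1, Cyp11b1, Cyp11b2, Cyp21a1, Nr5a1 and Mc2r, a list chosen after values were seen) summed to 1008, 2996, 3.92 and 3.37 CPM in the IRI libraries and to 94.8, 0.885, 2752 and 1696 CPM in sham. IRI replicates 1 and 2 and sham replicates 3 and 4 were therefore high in both groups, and sham replicate 1 held a low level, while Cyp11b1, which makes corticosterone, was at 0 in IRI replicates 3 and 4 and sham replicate 2. Steroid-making cells take up, store and synthesize cholesterol, so calls below are also given for the 4 libraries with the lowest sums (IRI 3 and 4 against sham 1 and 2) and with the marker level as a covariate, both chosen after seeing the data. Of 12 principal cell markers, 12 fell after IRI, and their sum went from 15520 to 19307 CPM in sham to 2931 to 4826 CPM. All 11 intercalated cell markers fell as well, from sums of 3207 to 4020 CPM to sums of 1054 to 1694 CPM. Of 14 tested proximal tubule markers, 9 rose and 0 fell by edgeR (0 also at an unadjusted p under 0.05 and by DESeq2), with sums of 19800, 13752, 21773 and 11296 CPM after IRI against 8041 to 10725 CPM in sham. Neutrophil markers rose in 7 of 7 tested, with sums of 55.8 to 155 CPM after IRI against 2.80 to 6.08 CPM. Endothelial sums were 346 to 685 CPM against 185 to 262 CPM, and macrophage sums 77.6 to 142 CPM against 41.5 to 62.2 CPM. IRI replicate 2 also stood apart for fibroblast markers, with a sum of 1646 CPM against 272 to 561 CPM in the other IRI libraries, and for adipocyte markers, with 267 CPM against 74.7 to 123 CPM. In such bulk RNA, fewer cells of a type and less RNA per cell cannot be told apart, and the part of these cell types in the results below was not tested except where a value is given.

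**Figure D1:**
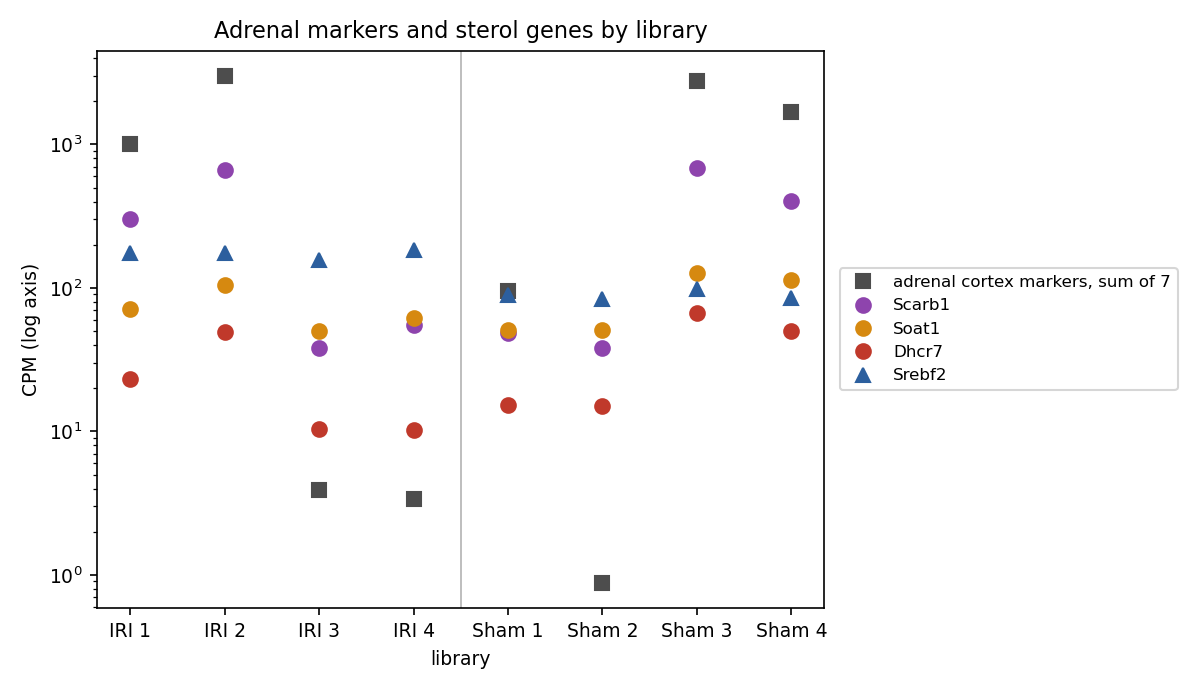
Summed adrenal cortex markers and 4 sterol genes in each of the 8 libraries, in CPM on a log axis, with 1 point per library. The marker sum is at 1008 CPM or more in IRI 1, IRI 2, Sham 3 and Sham 4, where Dhcr7, Soat1 and Scarb1 are also at their highest, while Srebf2 is at 157 to 183 CPM in every IRI library and at 83.5 to 99.0 CPM in every Sham library.

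After IRI, 10 of the 29 genes were higher, 10 were lower and 9 were not called. Over all genes tested, 49.7% were called, 25.1% higher and 24.6% lower. The members' median log2 fold change was 0.32, against -0.01 over all genes. The groups did not overlap in 24 of 29 members, 13 above sham and 11 below, and in 58.6% of all genes tested. Of the 18 enzymes 7 rose and 3 fell with a median of 0.38, whereas 3 of the 4 oxysterol and LXR genes fell and the 2 other SREBP-responsive genes fell. At an adjusted p under 0.05, which 63.6% of all genes met, 12 enzymes were higher and 5 lower. Scaling by total counts, which moved the median gene by -0.19, gave 7 members higher and 12 lower, of them 4 enzymes higher and 5 lower, with 2784 higher and 4912 lower over all genes against 3667 and 3595 with TMM. With IRI 3 and 4 against sham 1 and 2 alone, which leaves fewer samples, 4 members were higher (Pmvk, Insig1, Srebf2 and Ch25h) and 2 lower (Abcg1 and Mylip), and of all genes 1611 were higher and 1004 lower. The other 14 called members had the same direction there, with edgeR adjusted p from 0.0102 for Abca1 to 0.145 for Mvk, among them Sqle at a log2 fold change of 1.21, Nsdhl at 1.08, Msmo1 at 0.91 and Stard4 at -0.85. The mice carry low numbers (3 IRI, 1 sham) or high ones (1 IRI, 3 sham), and with that split as a covariate 6 members were higher and 8 lower, 3 enzymes higher and 1 lower, and of all genes 3133 higher and 3033 lower. Without sham replicate 4, 6 members and 3 enzymes were higher, and without IRI replicate 1 or sham replicate 3 there were 4 enzymes higher. Without sham replicate 2, 1 enzyme was lower. Of all genes, 3179 were higher without sham replicate 4, 3504 without IRI replicate 1 and 3276 without sham replicate 3. Without sham replicate 2, 3169 of all genes were lower.

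**Figure D2:**
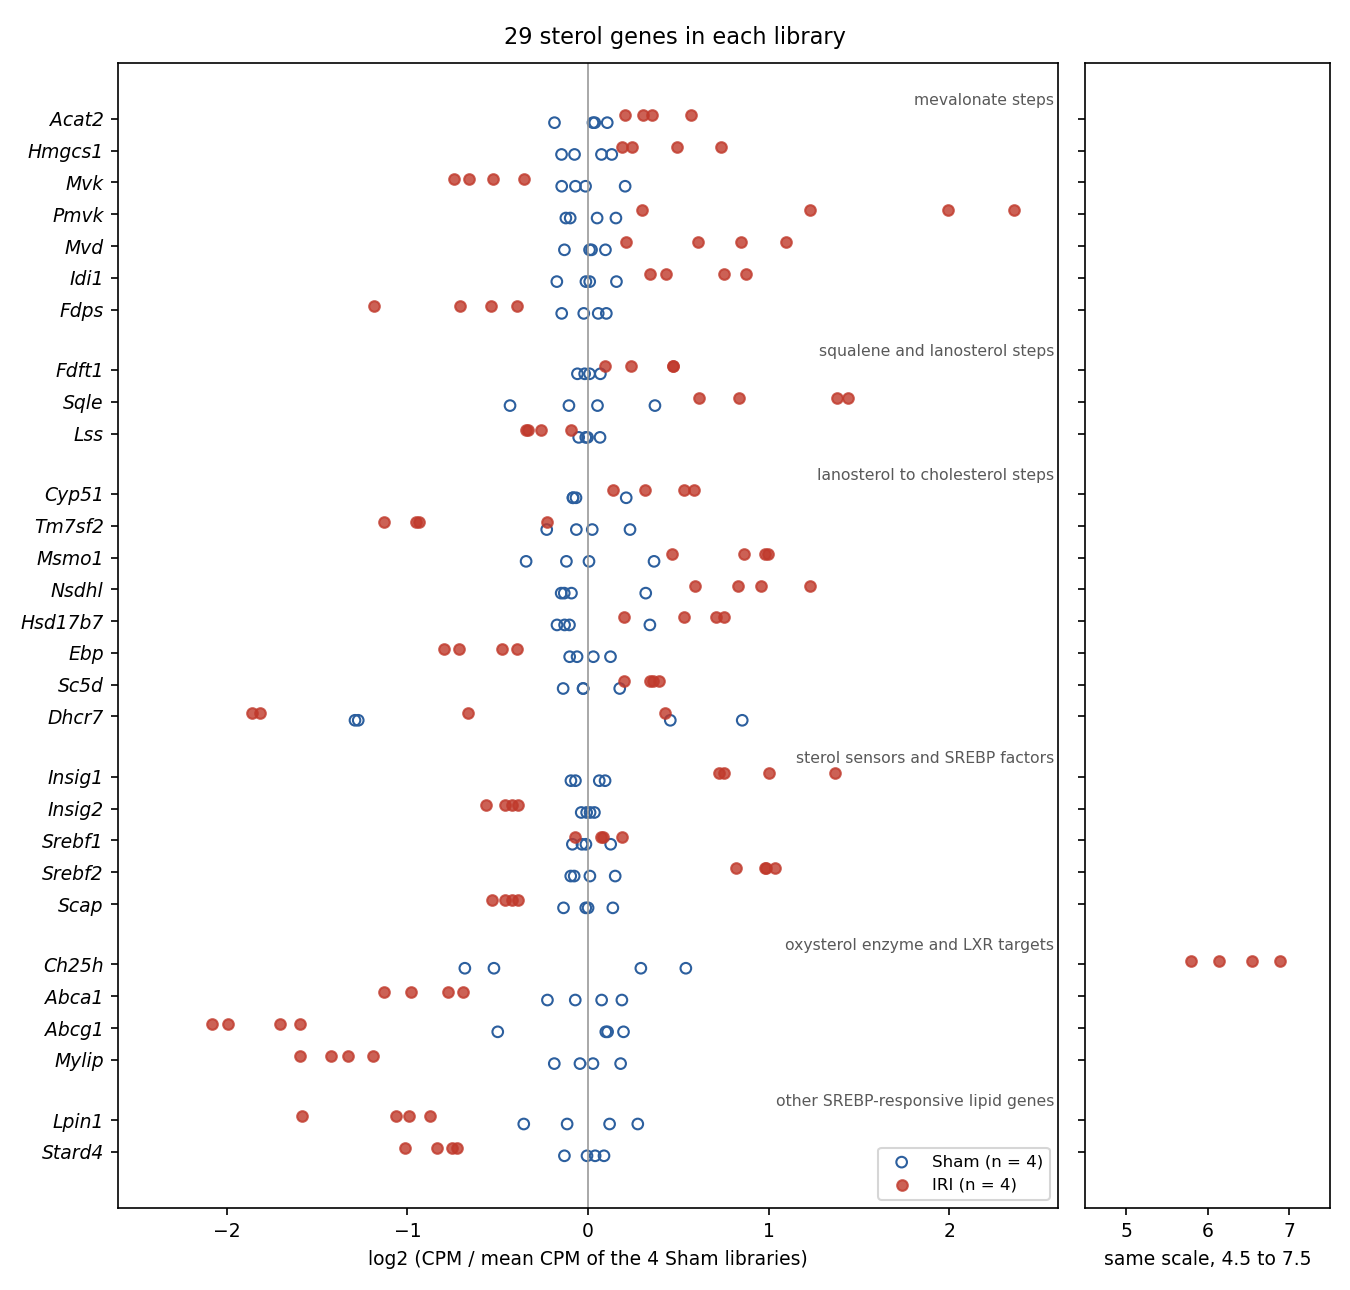
Level of each of the 29 genes in each library as log2 of its CPM over the mean CPM of the 4 Sham libraries, grouped by role, with filled points for IRI and open points for Sham (n = 4 each). Ch25h after IRI lies far to the right, in the narrow panel. Most enzymes lie right of the line at 0 after IRI. The listed LXR targets, Lpin1 and Stard4 lie left of it, while the points of Dhcr7 split within each group.

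The 7 genes of the mevalonate steps did not move as one. Pmvk, phosphomevalonate kinase, had the largest rise among the called enzymes, with a wide spread between IRI mice. It was at 136, 32.8, 62.3 and 106 CPM after IRI and at 29.6, 27.6, 24.5 and 24.9 CPM in sham. IRI replicate 2 was just above the sham range and the other IRI replicates were far above it. The difference was a log2 fold change of 1.67 ± 0.39 (edgeR adjusted p = 0.00313), with adjusted p of 0.0107 and 0.0111 when sham replicates 3 and 4 were left out in turn. Mvd, the decarboxylase that follows Pmvk, was at 21.2, 18.1, 25.3 and 13.7 CPM after IRI and 11.98, 11.9, 10.8 and 12.6 CPM in sham. All 4 IRI replicates lay above sham, IRI replicate 4 by little (log2 fold change 0.73 ± 0.18, edgeR adjusted p = 0.00489). Its call was lost in 6 of the 8 fits that left out 1 library, with adjusted p from 5.4e-04 to 0.0185.

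The kinase before Pmvk and the synthase at the end of this stretch went down. Mvk, mevalonate kinase, was at 7.601, 6.93, 6.54 and 8.53 CPM after IRI and at 10.4, 10.8, 9.88 and 12.6 CPM in sham. Every IRI replicate was below every sham replicate, at a log2 fold change of -0.56 ± 0.13 (edgeR adjusted p = 0.00461). Fdps, which makes farnesyl diphosphate, was at 7.41, 8.18, 4.73 and 6.59 CPM after IRI and at 11.5, 11.2, 10.6 and 9.72 CPM in sham. Again the groups did not overlap (log2 fold change -0.68 ± 0.16, edgeR adjusted p = 0.00624). Both calls were fragile to the loss of 1 library, Mvk in 5 of 8 such fits with adjusted p up to 0.0141 and Fdps in 4 of 8 with adjusted p up to 0.0165. Of the merged exon bases of Fdps, 26.7% are shared with Gm43738, so its counts are less certain than those of its neighbours. Smaller shares apply to Scap (13.2%, with 5830462I19Rik), Hmgcs1 (12.1%, with Gm48342) and Ch25h (11.5%, with Gm26902).

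Hmgcs1, the synthase that forms HMG-CoA and the gene with the sterol element shown above, was the most abundant member by exon length in both groups. It was at 422, 299.7, 357 and 289 CPM after IRI and at 277, 240.4, 229 and 267 CPM in sham. The groups did not overlap, IRI replicate 4 lying closest to sham, but the gene was not called (log2 fold change 0.43 ± 0.13, edgeR adjusted p = 0.0172). Acat2, the cytosolic thiolase of the first step, had 25.5 to 32.8 CPM after IRI and 19.5 to 23.9 CPM in sham (log2 fold change 0.36, edgeR adjusted p = 0.0124). Idi1, the isomerase of isopentenyl diphosphate, had 4.74 to 6.86 CPM after IRI and 3.32 to 4.18 CPM in sham (log2 fold change 0.61, edgeR adjusted p = 0.0102). These 3 genes lay above sham in all 4 IRI mice without meeting the threshold.

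Sqle, squalene epoxidase, an oxygen-consuming and rate-limiting enzyme, was the member of the squalene and lanosterol steps that rose. It was at 59.1, 38.9, 56.6 and 33.4 CPM after IRI and at 22.6, 16.2, 20.3 and 28.2 CPM in sham. The lowest IRI replicate was above the highest sham replicate, and IRI replicates 1 and 3 were the highest. The log2 fold change was 1.11 ± 0.22 (edgeR adjusted p = 0.00187), with adjusted p no higher than 0.00665 when any 1 library was left out. Fdft1, squalene synthase, was at 33.7 to 43.8 CPM after IRI and 30.3 to 33.1 CPM in sham and was not called (log2 fold change 0.33, edgeR adjusted p = 0.0159), and 18.3% of its exon bases are shared with Ctsb. Lss, which closes the rings to give lanosterol, lay on the other side, at 21.5 to 25.5 CPM after IRI and 26.3 to 28.5 CPM in sham, without being called (log2 fold change -0.25, edgeR adjusted p = 0.0234).

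Of the 8 genes between lanosterol and cholesterol, 4 rose and 1 fell. Msmo1, Nsdhl and Hsd17b7, which remove methyl groups from the sterol nucleus in one series of reactions, all rose. Msmo1, the oxygenase of that series, was at 55.2, 54.8, 38.2 and 50.5 CPM after IRI and at 21.9, 25.5, 35.7 and 27.8 CPM in sham. IRI replicate 3 and sham replicate 3 came close to each other and the rest were well apart (log2 fold change 0.84 ± 0.17, edgeR adjusted p = 0.00181). Nsdhl, the dehydrogenase that follows, was at 29.7, 32.4, 39.1 and 25.1 CPM after IRI and at 15.05, 15.2, 15.6 and 20.8 CPM in sham. The groups did not overlap, and sham replicate 4 stood above the other sham mice (log2 fold change 0.92 ± 0.16, edgeR adjusted p = 7.65e-04). Hsd17b7, the ketosteroid reductase, was at 51.1, 34.8, 43.9 and 49.5 CPM after IRI and at 27.7, 38.5, 28.3 and 26.9 CPM in sham. Here sham replicate 2 lay above IRI replicate 2, so the groups overlapped (log2 fold change 0.57 ± 0.15, edgeR adjusted p = 0.00965), and the call was lost in 6 of 8 fits without 1 library, with adjusted p up to 0.0369.

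Sc5d, a desaturase near the end of the pathway, rose by a small step, from 31.5 to 39.2 CPM in sham to 39.7 to 45.6 CPM (log2 fold change 0.32 ± 0.09, edgeR adjusted p = 0.00923), and lost its call in 6 of 8 fits without 1 library, with adjusted p up to 0.0342. Ebp, the sterol isomerase just before it, fell. It was at 27.5, 22.0, 26.0 and 20.8 CPM after IRI and at 34.6, 39.4, 36.9 and 33.7 CPM in sham, with no overlap (log2 fold change -0.59 ± 0.11, edgeR adjusted p = 0.00115). Ebp was thus below sham in 4 of 4 IRI mice while Nsdhl, a few steps earlier, was above sham in 4 of 4. Cyp51, the lanosterol demethylase, had 56.0 to 76.5 CPM after IRI and 48.1 to 59.0 CPM in sham and was not called (log2 fold change 0.40, edgeR adjusted p = 0.0126). Tm7sf2, a sterol reductase that acts on the product of Cyp51, had 2.89 to 5.41 CPM after IRI and 5.40 to 7.43 CPM in sham and was not called either (log2 fold change -0.76, edgeR adjusted p = 0.0135), and 12.1% of its exon bases are shared with Vps51.

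Dhcr7, the reductase of the last step, was high in the libraries with adrenal markers in both groups. It was at 23.2, 49.3, 10.5 and 10.1 CPM after IRI and at 15.2, 15.04, 66.4 and 50.4 CPM in sham. The high values were those of IRI 1, IRI 2, sham 3 and sham 4, the 4 libraries with adrenal sums of 1008 CPM or more, so that the spread within each group was wider than the difference between them (log2 fold change -0.67 ± 0.64, edgeR adjusted p = 0.377). In the 4 libraries with the lowest adrenal sums the log2 fold change was -0.56 (edgeR adjusted p = 0.0615), and with the adrenal level as a covariate it was -0.51 (edgeR adjusted p = 0.119). Over 20 alternatives its adjusted p ran from 0.0615 to 0.967. With the same covariate all 20 called members stayed past the threshold, and Idi1 came past it at 0.63 (edgeR adjusted p = 0.00783).

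Of the 7 enzymes that rose, Sqle and Mvd were highest in the 2 IRI mice with the largest proximal tubule sums. These were IRI replicates 1 and 3, with sums of 19800 and 21773 CPM. Hmgcs1 and Cyp51, which were not called, were also highest there, Cyp51 at 76.5, 63.3, 73.8 and 56.0 CPM. Over 20 alternatives the log2 fold change of Cyp51 ran from 0.028 to 0.485. The other 5 enzymes that rose did not have their 2 highest IRI values in those 2 mice, though Nsdhl was highest in IRI replicate 3. Pmvk and Hsd17b7 were highest in IRI replicates 1 and 4, Nsdhl in IRI replicates 3 and 2, and Msmo1 and Sc5d had their lowest IRI values, 38.2 and 39.7 CPM, in IRI replicate 3. With that sum as a covariate, an alternative chosen after seeing the data, the log2 fold change of Sqle was 0.31 (edgeR adjusted p = 0.213), that of Mvd 0.12 (edgeR adjusted p = 0.607) and that of Hmgcs1 0.02 (edgeR adjusted p = 0.926). Pmvk had 1.52 (edgeR adjusted p = 0.0655), Nsdhl 0.54 (edgeR adjusted p = 0.0768) and Msmo1 1.13 (edgeR adjusted p = 0.0102), all short of the threshold. By edgeR 0 of the 18 enzymes were then higher (6 at an unadjusted p under 0.05, and 12 by DESeq2 without the covariate), 1 was lower, and the members still higher were Insig1, Srebf2 and Ch25h. Calls over all genes fell as well, from 3667 higher and 3595 lower to 2121 and 1564. DESeq2 without the covariate gave 4270 and 3993 over all genes. The sums did not overlap between IRI and sham, so a change in the collecting duct and a larger share of proximal tubule RNA cannot be told apart.

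**Figure D3:**
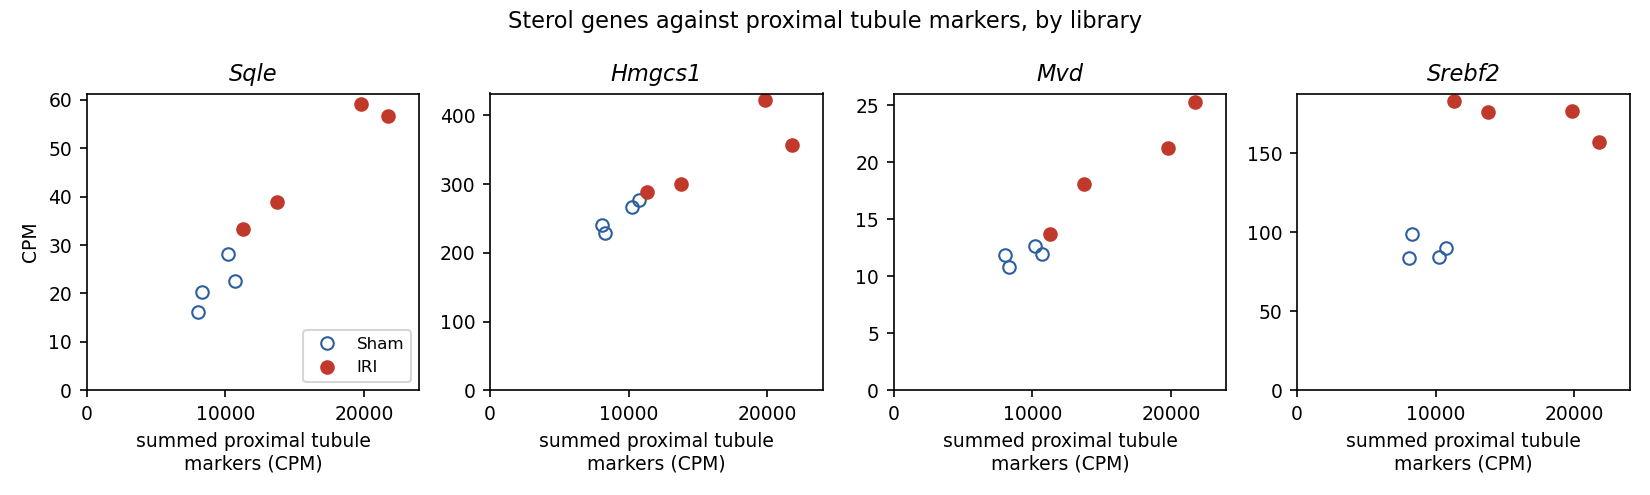
Levels of Sqle, Hmgcs1, Mvd and Srebf2 against the summed proximal tubule markers, both in CPM, with 1 point per library, filled for IRI and open for Sham. Sqle, Hmgcs1 and Mvd are highest in the 2 IRI libraries with the largest sums, and Srebf2 lies between 157 and 183 CPM in all 4 IRI libraries.

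Among the sensors and factors, the 2 INSIG genes moved apart and so did the 2 SREBP genes. Srebf2, which encodes the SREBP that mainly drives cholesterol synthesis (chr15:82147181-82205379), rose. It was at 177, 176, 157 and 183 CPM after IRI and at 89.8, 83.5, 99.0 and 84.6 CPM in sham. The groups lay far apart with little spread in either, at a log2 fold change of 0.96 ± 0.08 (edgeR adjusted p = 1.31e-05), and the call held in all 20 alternatives, with adjusted p no higher than 0.00606. Srebf1, whose products mainly drive fatty acid synthesis, was at 79.9, 86.6, 80.4 and 72.3 CPM after IRI and at 74.2, 82.9, 75.4 and 71.5 CPM in sham. The 2 groups overlapped almost fully (log2 fold change 0.07 ± 0.08, edgeR adjusted p = 0.446), and its sign turned under 3 alternatives.

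Insig1, itself a well-known SREBP target and the more short-lived of the 2 INSIG proteins, was at 33.3, 52.1, 40.4 and 33.9 CPM after IRI and at 18.9, 19.2, 21.5 and 21.1 CPM in sham. All 4 IRI mice were well above sham (log2 fold change 0.98 ± 0.14, edgeR adjusted p = 3.05e-04), and the call held in all 20 alternatives, with adjusted p no higher than 0.00972. Insig1 was highest in IRI replicate 2, which also had the highest endothelial and macrophage sums, 685 and 142 CPM. None of the alternatives used those markers, and the part of those cells was not tested. Insig2 was at 45.8, 40.5, 44.8 and 43.6 CPM after IRI and at 58.4, 61.4, 60.4 and 59.6 CPM in sham. It fell in all 4 IRI mice (log2 fold change -0.46 ± 0.07, edgeR adjusted p = 2.16e-04). Scap, the escort that both INSIG proteins bind, was at 126, 124, 115 and 120.2 CPM after IRI and at 165, 164, 182 and 151 CPM in sham. It fell without overlap (log2 fold change -0.45 ± 0.08, edgeR adjusted p = 7.41e-04), and Srebf2 and its escort therefore changed in opposite directions. The Scap call was also lost with the proximal tubule covariate (log2 fold change -0.39, edgeR adjusted p = 0.0402). For Insig2 and Scap, the 4 libraries with the lowest adrenal sums gave log2 fold changes of -0.44 and -0.49 with edgeR adjusted p of 0.0406 and 0.0334.

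Ch25h, the enzyme that hydroxylates cholesterol on its side chain to an oxysterol, had the largest change of the 29 genes (chr19:34473778-34475164). It was at 16.9, 28.6, 36.2 and 21.5 CPM after IRI and at 0.373, 0.212, 0.190 and 0.444 CPM in sham. Sham libraries held 6 to 12 counts each and IRI libraries 367 to 581, so the sham level is known only roughly. The log2 fold change was 6.39 ± 0.59 (edgeR adjusted p = 1.55e-06), or 84.1-fold, and lay between 6.04 and 6.61 in all 20 alternatives. Macrophages are known to make Ch25h, and their marker sums, at 77.6 to 142 CPM after IRI against 41.5 to 62.2 CPM, were higher too, with 4 of 10 tested markers called. Neutrophil sums were higher as well, at 55.8 to 155 CPM against 2.80 to 6.08 CPM, with 7 of 7 tested markers called. Endothelial sums were at 346 to 685 CPM against 185 to 262 CPM, with 7 of 11 called. Within the IRI group Ch25h had the order of the neutrophil sums, which were 55.8, 153, 155 and 82.3 CPM. It was lowest in IRI replicate 1, as were the macrophage and endothelial sums, but those sums were highest in IRI replicate 2. None of the alternatives used markers of these cell types, and their part in the rise of Ch25h was not tested.

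The genes listed as LXR targets, Abcg1, Abca1 and Mylip, went the other way. Abcg1, an exporter of cholesterol to lipoproteins (chr17:31057675-31117988), was at 22.8, 31.9, 29.6 and 24.2 CPM after IRI and at 103, 110.3, 104 and 68.1 CPM in sham. Sham replicate 4 was the lowest sham mouse and still above every IRI mouse (log2 fold change -1.83 ± 0.18, edgeR adjusted p = 1.98e-05). Abca1, which exports cholesterol to lipid-poor apolipoprotein, was at 100.5, 123, 115 and 90.4 CPM after IRI and at 208, 188, 225 and 169 CPM in sham. It fell in all 4 IRI mice (log2 fold change -0.88 ± 0.12, edgeR adjusted p = 2.13e-04). Mylip, a ubiquitin ligase that marks lipoprotein receptors for degradation, was at 49.4, 42.1, 37.4 and 45.0 CPM after IRI and at 128, 115, 109 and 99.0 CPM in sham. Again every IRI value was below every sham value (log2 fold change -1.37 ± 0.11, edgeR adjusted p = 7.59e-06). The calls of Abcg1 and Mylip held in all 20 alternatives, and that of Abca1 in all but 1, the 4 libraries with the lowest adrenal sums (log2 fold change -0.95, edgeR adjusted p = 0.0102).

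Both remaining members fell although they are known to respond to SREBP. Stard4, a protein that carries sterol between membranes, was at 31.1, 32.9, 33.5 and 27.5 CPM after IRI and at 59.0, 50.7, 55.3 and 57.0 CPM in sham. The groups were far apart (log2 fold change -0.83 ± 0.09, edgeR adjusted p = 3.87e-05). Lpin1, a phosphatidate phosphatase of triglyceride synthesis, was at 44.7, 47.0, 51.0 and 31.2 CPM after IRI and at 113, 73.0, 86.2 and 101 CPM in sham. All IRI mice were below all sham mice (log2 fold change -1.11 ± 0.18, edgeR adjusted p = 4.69e-04). Principal and intercalated cell markers all fell, the same direction between groups as these genes and the listed LXR targets. Their sums were highest among IRI libraries in IRI replicate 4, at 4826 and 1694 CPM. Stard4, Lpin1 and Abca1 had their lowest IRI values in that replicate, while Abcg1 and Mylip had theirs in IRI replicates 1 and 3. The part of principal and intercalated cells was not tested.

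By exon length, the order of the members shifted with injury. Hmgcs1 was first in both groups, at 55.1 ± 4.92 CPM per kilobase in sham and 74.4 ± 13.3 after IRI. Mylip was the next in sham, at 34.8 ± 3.69 CPM per kilobase, and 8th after IRI, at 13.4 ± 1.56. Pmvk went from 7th place in sham, at 15.5 ± 1.42 CPM per kilobase, to 2nd after IRI, at 49.2 ± 26.8, a wide spread. Ch25h went from the last place in sham, at 0.220 ± 0.0890 CPM per kilobase, to the 4th after IRI, at 18.6 ± 6.07. Srebf2 was at 12.4 ± 0.982 CPM per kilobase in sham and Srebf1 at 13.5 ± 0.861, and after IRI they were at 24.1 ± 1.54 and 14.2 ± 1.04. Abcg1 went from 9th to 24th place. Idi1, Tm7sf2 and Lss were among the lowest in both groups.

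**Figure D4:**
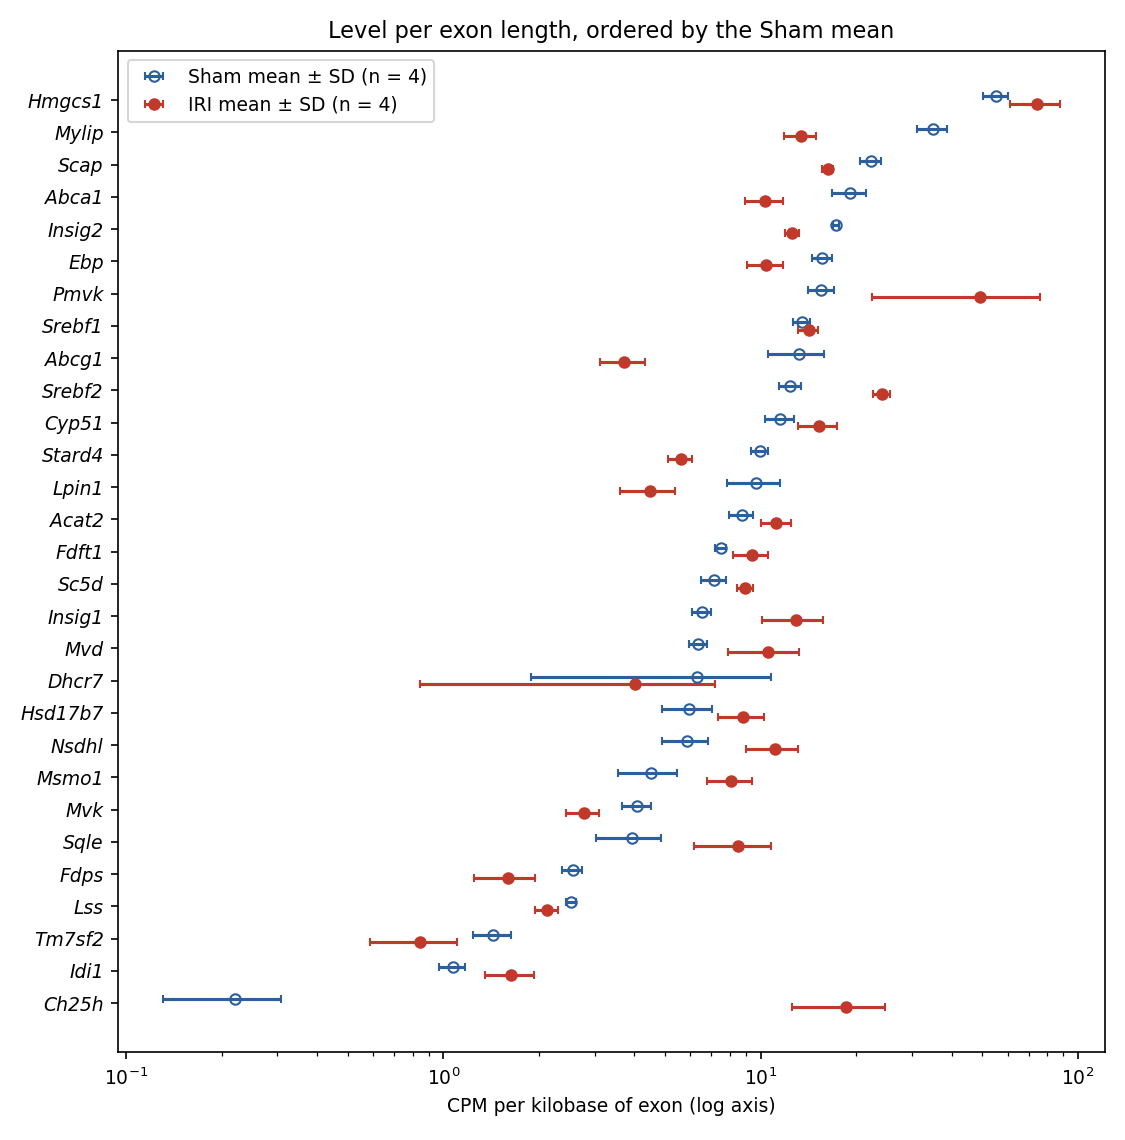
Level of each of the 29 genes in CPM per kilobase of merged exon, on a log axis and ordered by the Sham mean, as mean ± SD (n = 4 per group), filled for IRI and open for Sham. Hmgcs1 leads in both groups, Ch25h goes from 0.220 to 18.6 CPM per kilobase, and Abcg1 and Mylip shift to the left.

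Other genes of sterol and lipid handling were counted from 7 further lists, to be read against the 49.7% of all genes that were called, 25.1% higher and 24.6% lower. Of 10 genes of SREBP cleavage and INSIG breakdown, 2 rose and 1 fell (median log2 fold change 0.16). Mbtps1, the Golgi protease that makes the first cut in SREBP, fell from 149 to 165 CPM in sham to 105 to 113 CPM (log2 fold change -0.54 ± 0.06, edgeR adjusted p = 9.24e-05). Erlin1 and Ubxn4, which take part in the degradation of endoplasmic reticulum proteins, rose by 1.03 and 0.73 on the log2 scale. Erlin1, at 71.5, 54.4, 82.6 and 51.4 CPM after IRI, had the order of the proximal tubule sums over the 8 libraries. The part of proximal tubule RNA in its rise was not tested. Thus Srebf2 was higher, and both its escort Scap and its first protease Mbtps1 were lower, in all 4 IRI mice. Of 7 genes of the LXR and RXR receptors and their cofactors 0 rose by edgeR (0 also at an unadjusted p under 0.05 and by DESeq2) and 3 fell (median -0.28), led by Rxrb, a partner of LXR, at 26.5 to 29.9 CPM after IRI against 48.4 to 54.8 CPM (log2 fold change -0.91). Ncoa1 and Ncor1, a coactivator and a corepressor of nuclear receptors, fell by 0.46 and 0.34 on the log2 scale. The LXR genes themselves were not called, with log2 fold changes of -0.01 for Nr1h3 and -0.27 for Nr1h2.

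Of 4 tested enzymes that break down or modify oxysterols, 2 fell and 1 rose. Cyp7b1, which inactivates the oxysterol made by Ch25h among others, was at 10.1, 9.35, 8.16 and 13.4 CPM after IRI and at 59.9, 57.8, 44.5 and 47.6 CPM in sham. Its fall was a log2 fold change of -2.35 ± 0.17 (edgeR adjusted p = 4.98e-06), with no overlap between the groups. Cyp39a1, another oxysterol hydroxylase, fell by 2.06 on the log2 scale, and the counts given to Hsd3b7, which acts after these hydroxylases, rose by 0.41. Of the exon bases of Hsd3b7, 99.2% are shared with 9430064I24Rik and Gm49388, so that rise can hardly be assigned to it. Ch25h and Cyp7b1, the maker and a remover of the same oxysterol, therefore changed in opposite directions in all 4 IRI mice.

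Of 17 genes of sterol transfer and uptake, 4 rose and 5 fell (median -0.08), and the 52.9% called was close to the 49.7% over all genes. Osbpl5, a lipid transfer protein at contacts of the endoplasmic reticulum, rose by 0.74 on the log2 scale. Lrpap1, a chaperone of lipoprotein receptors, rose by 0.80. Its IRI values of 219, 165, 227 and 140 CPM had the order of the proximal tubule sums, while its sham values did not. Gramd1a and Gramd1c, proteins that move cholesterol from the plasma membrane, went apart, with log2 fold changes of 0.65 and -0.75. Stard5 and Osbpl2, also sterol carriers, fell by 0.57 and 0.51 on the log2 scale. Scarb1, the receptor for high density lipoprotein, was at 304, 660.0, 38.3 and 55.4 CPM after IRI and at 48.3, 38.4, 685 and 403 CPM in sham, and Soat1, which esterifies cholesterol, at 71.4, 105, 49.96 and 61.5 CPM and at 50.8, 50.7, 128 and 114 CPM. Like Dhcr7, both were high in the libraries with adrenal markers and neither was called.

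The branches next to the sterol pathway changed in a mixed way. Of 5 genes of sterol ester synthesis and hydrolysis 2 rose, including Ces1d, a carboxylesterase of lipid droplets (log2 fold change 1.08). Ces1d was at 163, 115, 182 and 87.2 CPM after IRI and at 84.4, 48.9, 55.1 and 71.5 CPM in sham. Over the 8 libraries it had the order of the proximal tubule sums, and the part of proximal tubule RNA in its rise was not tested. Of 12 genes of the isoprenoid branch 2 rose and 2 fell. Nus1, a subunit of the enzyme of dolichol synthesis, rose by 1.13 and Pdss1, of ubiquinone side chain synthesis, by 1.03 on the log2 scale, and Fnta and Icmt, of protein prenylation, had log2 fold changes of -0.76 and -0.30. Of 17 genes of fatty acid synthesis and desaturation 1 rose and 4 fell (median -0.03). Scd2, a stearoyl-CoA desaturase, was at 147, 180.2, 107 and 232 CPM after IRI and at 986, 1053, 918 and 870 CPM in sham (log2 fold change -2.52 ± 0.23, edgeR adjusted p = 1.38e-05). Acacb and Gpam also fell, by 1.39 and 0.77 on the log2 scale, and Elovl1 rose by 0.82. Others of this list varied with single libraries and were not called. Acly, Fads1 and Fads2 had their highest value of each group in a library with high adrenal markers (IRI replicate 2 and sham replicate 3), Fads2 at 69.4, 98.3, 58.8 and 30.1 CPM after IRI and at 28.6, 19.997, 163 and 86.6 CPM in sham. Scd1 and Fasn were highest in IRI replicates 2 and 4, Scd1 at 56.1, 1181, 187 and 606 CPM after IRI against 92.8 to 254 CPM in sham.

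**Figure D5:**
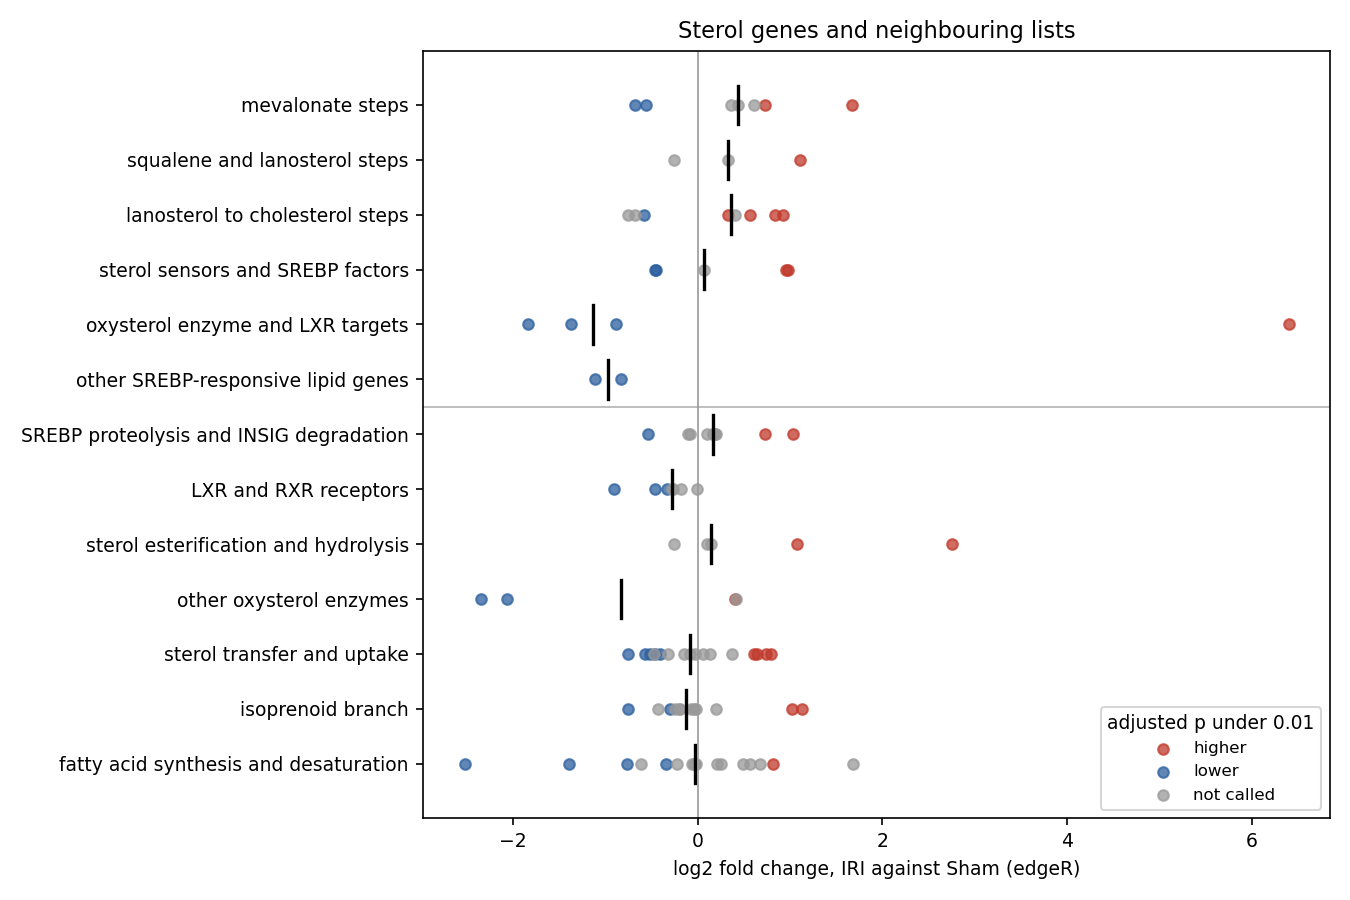
Log2 fold changes from edgeR, IRI against Sham, for the genes of the 6 roles among the 29 members (above the line) and of 7 neighbouring lists (below it), with 1 point per gene, red for higher, blue for lower and grey for not called at an adjusted p of 0.01, and a black bar at each median. The medians of the enzyme groups lie to the right of 0, and Ch25h lies alone at 6.39. Medians of the oxysterol and LXR genes, the LXR and RXR receptors and the other oxysterol enzymes lie to the left.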

How the data were processed

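Ribosome-bound RNA from cells of the HoxB7 lineage was sequenced in 4 IRI and 4 sham mice, 1 library per mouse. The authors depleted ribosomal RNA, aligned reads to mm10 with TopHat2 2.1.1, counted them per gene symbol with HTSeq and deposited raw counts with no normalization. The strand option, annotation release and mode of counting were not given in the sources used here. It is therefore not known how reads of overlapping genes, also on opposite strands, were assigned. The shares of exon bases given above ignore strand and come from the annotation named below. Lines that name no gene (43.3% to 52.3% of the IRI libraries, 33.3% to 37.7% of the sham libraries) entered neither library sizes nor tests.

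The counts were tested with edgeR 4.0.16 in R 4.3.3 on the whole table, with TMM factors, filterByExpr (minimum count 10, minimum total 15), the quasi-likelihood test and Benjamini-Hochberg adjustment, at a threshold of 0.01 after the study's methods. Voom in limma 3.58.1 gave the standard errors. Alternatives were DESeq2 1.42.0, other scalings and filters, a replicate block, the animal number series read from names the submitters gave, and each library left out. The biological coefficient of variation was 0.206. The fit was tested on simulated counts in which a small share of genes was changed, equally many up and down. That setting differs from these data, so it could not check the scaling. Levels per kilobase used merged exons of GENCODE vM21 (GRCm38), which may not be the authors' annotation.

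The members and lists were chosen with earlier results of these data known. All 29 members are named, and of each other list up to 3 genes per direction with the largest change among those called, where the mean level was 5 CPM or more and the groups did not overlap. Scarb1, Soat1, Nr1h2, Nr1h3, Acly, Fads1, Fads2, Fasn and Scd1 are named beside them, chosen after their values were seen. Some genes of the pathway are not reported here. Adrenal and proximal tubule covariates were added after seeing the data.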

Additional observations from a re-analysis of the deposited data

Results flagged for a closer look

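In 4 of 58 groups of 4 libraries examined over the 29 genes, 1 library stood far from the other 3 by Dixon's criterion, which chance meets in about 1 of 20 groups. Cyp51 was at 59.0 CPM in sham replicate 1, with the other sham libraries at 48.1 to 48.7 CPM. Sham replicate 1 also had the largest proximal tubule sum of the sham libraries, 10725 CPM. Tm7sf2 was at 5.41 CPM in IRI replicate 1, with the other IRI libraries at 2.89 to 3.301 CPM. Nsdhl was at 20.8 CPM in sham replicate 4, with the others at 15.05 to 15.6 CPM. Hsd17b7 was at 38.5 CPM in sham replicate 2, with the others at 26.9 to 28.3 CPM.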

How the results depend on the processing

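Of the 29 genes, 6 kept their direction and call in all 20 alternatives: Srebf2, Insig1, Ch25h, Abcg1 and Mylip, all called, and Dhcr7, not called. Srebf1 alone changed sign, to -0.042 in the 4 libraries with the lowest adrenal markers, -0.12 with total counts and -0.046 with upper quartile factors. Against 10 members higher and 10 lower, those 4 libraries gave 4 and 2, the animal number series 6 and 8 (3133 and 3033 over all genes) and the proximal tubule covariate 3 and 7 (2121 and 1564). Leaving out 1 library gave 6 to 11 members higher and 8 to 10 lower. Over all genes it gave 3179 to 3550 higher and 3169 to 3479 lower. Against 7 enzymes higher and 3 lower, the 4 libraries gave 1 and 0 (4 lower at an unadjusted edgeR p under 0.05), DESeq2 12 and 5, a threshold of 0.05 also 12 and 5, the series 3 and 1, the proximal tubule covariate 0 and 1 (6 higher at an unadjusted edgeR p under 0.05), and total counts or upper quartile factors 4 and 5 each. Over all genes, DESeq2 called 4270 higher and 3993 lower, and the threshold of 0.05 gave 4646 and 4637. Leaving out 1 library gave 3 to 8 enzymes higher and 1 to 3 lower.

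Total counts shifted the median gene by -0.19 and upper quartile factors by -0.12, so that of all genes 2784 were higher and 4912 lower, and 3092 and 4393. The median of all members, 0.32, was 0.028 with the proximal tubule covariate, 0.13 with total counts and 0.21 with upper quartile factors. That of the enzymes, 0.38, was 0.20 with the covariate and 0.19 with total counts. With the covariate the mevalonate steps had 0.12, the lanosterol to cholesterol steps 0.23 and the other SREBP-responsive genes -1.34. With total counts the squalene steps had 0.14, the lanosterol to cholesterol steps 0.17, the sensors -0.12 and the oxysterol and LXR genes -1.32. With upper quartile factors the last 3 groups had 0.25, -0.046 and -1.24. In the 4 libraries the sensors had -0.042 and the oxysterol and LXR genes -1.25. The causes were not tested. In the fit on 4 libraries, fewer samples and lower adrenal sums cannot be told apart.

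Replicate numbers showed no pairing of the mice. Deviations of same-numbered IRI and sham libraries had correlations from -0.53 to -0.07, and none matched its own number best. High adrenal sums fell in IRI replicates 1 and 2 but sham replicates 3 and 4, which bears on these correlations, so the check cannot show or exclude a pairing. With the replicate block 7 members were higher and 8 lower, 4 enzymes higher and 1 lower, and of all genes 2870 and 2712. Precision is set by 4 mice per group and, for Ch25h in sham, by 6 to 12 counts.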
